A study of Mus musculus with 42 samples.

Results

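The genes *Cpa3*, *Mcpt4*, *Cma1*, *Tpsb2*, *Tpsab1*, *Fcer1a*, *Ms4a2* and *Hdc*, whose products mark mast cells, were followed across the RNA-seq libraries of spermatogonia sorted from 10 dpp testes. All 8 genes were chosen by name, with earlier results of these data known, and were found by gene ID among the 27179 genes of the count table. Shares and medians of all genes are therefore given for scale, and do not test the members as a set. The table held 12 libraries, with 3 in each of 4 groups. Controls were Ddx4-Cre; Chd8 +/F and mutants were Ddx4-Cre; Chd8 F/-, so that every group carried the Cre transgene and at least 1 floxed or deleted *Chd8* allele, on the C57BL/6J background. Ddx4-Cre is active in germ cells. The c-Kit+ cells were retained first on magnetic beads, and the Thy1+ cells were then retained from the flow-through. The cells of each sort came from pooled testes of male pups, so that p-values measure the spread between these sorts.

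Mast cells are tissue-resident immune cells that depend on the receptor Kit for survival. Their granules hold histamine and neutral proteases, which are released when IgE bound to the high-affinity IgE receptor is cross-linked. *Cpa3* encodes carboxypeptidase A3, *Cma1* and *Mcpt4* encode chymases, and *Tpsb2* and *Tpsab1* encode tryptases. Together these proteases are typical of mast cells in connective tissue, whereas *Mcpt1* and *Mcpt2* are typical of mucosal mast cells. *Fcer1a* and *Ms4a2* encode the alpha and beta chains of the IgE receptor, and *Hdc* encodes histidine decarboxylase, the enzyme that forms histamine, which other cell types also make. Besides mast cells, differentiating spermatogonia and Leydig cells carry Kit. In bulk libraries such as these, a change in the number of cells of a type and a change in RNA per cell cannot be told apart.

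The 8 genes lie on 6 chromosomes in the mm10 build used for the counts. *Cpa3* (gene ID 12873) is at chr3:20215616-20242181 on the minus strand and was counted over 11 exons. The chymase genes *Mcpt4* (17227, chr14:56059744-56062310) and *Cma1* (17228, chr14:55941451-55944661) are both on the minus strand, with 115082 bases between them. The tryptase genes *Tpsb2* (17229, chr17:25366333-25368092, plus strand) and *Tpsab1* (100503895, chr17:25343245-25345562, minus strand) face away from each other with 20770 bases between them. *Fcer1a* (14125) is at chr1:173221271-173227229, *Ms4a2* (14126) at chr19:11617193-11623643 and *Hdc* (15186) at chr2:126593668-126618665, all on the minus strand. The counted exons of the 8 genes shared 0 bases with exons of other genes in the table.

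The exons compared in the tryptase pair are closer in sequence than those of the chymase pair, and RefSeq on GRCm38 gives *Tpsab1* exons without a coding sequence. The inbred strain C57BL/6 is known to carry a splice-site change in this gene. In the exons of 164 bases at chr17:25367445-25367608 (*Tpsb2*, plus strand) and chr17:25343656-25343819 (*Tpsab1*, minus strand), 47 bases differ. Both are given from the reference genome, 5′ to 3′ along the gene, with the differing bases in capitals.
Tpsb2: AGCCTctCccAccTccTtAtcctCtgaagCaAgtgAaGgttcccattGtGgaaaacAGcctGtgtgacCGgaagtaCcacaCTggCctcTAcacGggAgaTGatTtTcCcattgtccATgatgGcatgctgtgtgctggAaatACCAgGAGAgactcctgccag
Tpsab1: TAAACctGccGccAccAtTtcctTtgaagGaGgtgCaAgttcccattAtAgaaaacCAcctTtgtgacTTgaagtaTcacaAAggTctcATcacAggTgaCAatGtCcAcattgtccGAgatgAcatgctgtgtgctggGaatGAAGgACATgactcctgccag
These exons were 71.3% identical, and the longest run without a difference was 15 bases. The exons of 266 bases were 68.4% identical with a longest run of 21 bases. The chymase genes *Mcpt4* and *Cma1* were less alike, at 58.8% to 65.6% over 3 exons of equal length.

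Promoter windows of 250 bases before the start were available from RefSeq (GRCm38.p6) for 6 of the 8 genes. Those of *Cpa3*, *Mcpt4* and *Cma1* are shown, whose levels were more like those of the other members than the levels of *Hdc* were. *Fcer1a* and *Ms4a2* were too low for this likeness to be measured. *Cpa3* is at chr3:20242182-20242431, *Mcpt4* at chr14:56062311-56062560 and *Cma1* at chr14:55944676-55944925, each on the minus strand. Capitals mark GATAA, the core that GATA factors bind, or its reverse complement TTATC.
Cpa3: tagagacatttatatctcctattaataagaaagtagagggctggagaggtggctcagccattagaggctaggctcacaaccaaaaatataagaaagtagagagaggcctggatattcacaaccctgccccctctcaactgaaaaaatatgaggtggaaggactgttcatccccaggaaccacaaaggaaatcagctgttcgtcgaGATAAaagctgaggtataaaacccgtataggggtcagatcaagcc
Mcpt4: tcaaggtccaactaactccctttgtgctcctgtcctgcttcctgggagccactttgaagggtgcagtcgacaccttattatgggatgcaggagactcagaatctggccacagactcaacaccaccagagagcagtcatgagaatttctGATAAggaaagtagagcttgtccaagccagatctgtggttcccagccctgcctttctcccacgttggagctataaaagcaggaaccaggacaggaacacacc
Cma1: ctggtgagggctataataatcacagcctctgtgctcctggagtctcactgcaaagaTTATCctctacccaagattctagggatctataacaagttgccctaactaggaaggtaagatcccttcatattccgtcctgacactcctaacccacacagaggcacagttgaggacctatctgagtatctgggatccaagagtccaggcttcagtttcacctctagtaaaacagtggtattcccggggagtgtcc
GATAA on either strand was present in 5 of the 6 windows, the exception being *Hdc*, and in 22.6% of 32851 windows of the same length. The E-box CATGTG, on either strand, was present in 1 of the 6 (*Fcer1a*) and in 12.3% of all windows. The E-box CACGTG was present in 0 of the 6 and in 6.02% of all windows. These matches describe the letters only.

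Library totals ranged from 32266861 to 45396233 counts. *Kit*, the gene of the sorting antigen, was at 633 to 768 CPM in the c-Kit+ and at 176 to 438 CPM in the Thy1+ libraries, where CPM is the count scaled to the size of its library with TMM factors. *Thy1* was at 0.440 to 1.04 CPM in c-Kit+ and 11.8 to 17.3 CPM in Thy1+ libraries. *Chd8* counts, which include exons outside the deleted part, were 266 to 308 CPM in control and 289 to 310 CPM in mutant c-Kit+ libraries and do not check the deletion. The summed level of 8 germ cell genes was 2387 to 3703 CPM in c-Kit+ libraries, beside 631 to 1948 CPM for 6 Leydig cell genes and 1813 to 4248 CPM for 6 stromal genes, so that genes of somatic testis cells were present in the sorted fractions.

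The chymase gene *Mcpt4* was at 8.08, 6.03 and 2.73 CPM in control c-Kit+ libraries (replicates 1, 2 and 3) and at 13.9, 12.0 and 18.8 CPM in mutant c-Kit+ libraries. It was at 0.504, 1.14 and 0.495 CPM in control and 1.26, 1.81 and 1.66 CPM in mutant Thy1+ libraries. The 4 groups did not overlap, in the order mutant c-Kit+, control c-Kit+, mutant Thy1+, control Thy1+. The other chymase gene, *Cma1*, was at 9.50, 6.05 and 4.23 CPM in control c-Kit+, 9.72, 9.81 and 12.3 CPM in mutant c-Kit+, 0.458, 1.14 and 0.716 CPM in control Thy1+ and 1.17, 1.49 and 1.85 CPM in mutant Thy1+ libraries. Its groups fell in the same order without overlap, but control c-Kit+ replicate 1 came close to the lowest mutant library. In Thy1+ libraries the highest control and the lowest mutant were also close, at 42 and 43 counts for *Cma1* and 42 and 46 counts for *Mcpt4*. How many of all genes had groups apart in this way was not counted, so these orders are a description only.

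*Cpa3* was at 7.87, 5.77 and 2.99 CPM in control and 11.7, 10.0 and 13.8 CPM in mutant c-Kit+ libraries. In Thy1+ libraries it was at 0.412, 1.42 and 0.275 CPM in controls and 0.437, 2.16 and 2.49 CPM in mutants. The c-Kit+ groups were apart from each other and from all Thy1+ libraries, while the Thy1+ groups overlapped, which is likewise a description only. The tryptase gene *Tpsb2* had the same arrangement, with 8.41, 5.74 and 2.64 CPM in control c-Kit+, 10.1, 9.38 and 12.7 CPM in mutant c-Kit+, 0.871, 0.600 and 0.771 CPM in control Thy1+ and 0.546, 2.55 and 1.40 CPM in mutant Thy1+ libraries. Its partner *Tpsab1* was lower throughout, at 1.65, 0.692 and 0.411 CPM in control c-Kit+, 2.38, 2.11 and 1.95 CPM in mutant c-Kit+, 0.412, 0.0545 and 0.165 CPM in control Thy1+ and 0.109, 0.348 and 0.160 CPM in mutant Thy1+ libraries. For *Tpsab1*, control c-Kit+ replicate 3 reached down to the highest control Thy1+ library, so that these groups overlapped.

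For all 5 proteases, control c-Kit+ replicate 3 was the lowest and replicate 1 the highest of the control c-Kit+ libraries. *Hdc* did not follow that order. It was at 15.3, 12.8 and 25.8 CPM in control and 36.8, 25.5 and 38.2 CPM in mutant c-Kit+ libraries, with control replicate 3 the highest control and above mutant replicate 2. In Thy1+ libraries *Hdc* overlapped the control c-Kit+ libraries, at 14.7, 7.52 and 11.5 CPM in control and 17.4, 9.84 and 14.7 CPM in mutant libraries.

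The IgE receptor chains, which define mast cells and basophils, were at or near 0. *Fcer1a* had 0 to 2 counts in each of the 12 libraries, and 0 counts in the 3 mutant Thy1+ libraries. *Ms4a2* had 16, 2 and 0 counts in control c-Kit+ libraries, 6, 5 and 15 counts in mutant c-Kit+ libraries, 0 counts in all 3 control Thy1+ libraries and 0, 4 and 6 counts in mutant Thy1+ libraries. If counts were independent, a count of 0 would allow up to 3 counts, or 0.0687 to 0.0826 CPM in the control Thy1+ libraries. Both reads of a fragment were counted, so that the actual limit is higher. Both genes were below the filter on low counts in every comparison. The third chain, *Fcer1g*, which many leukocytes use, was higher in Thy1+ libraries (5.06 ± 1.14 CPM in control, SD, n = 3) than in c-Kit+ libraries (1.35 ± 0.876 CPM). The basophil proteases *Mcpt8* and *Prss34* did not exceed 0.255 and 0.452 CPM in any library.

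**Figure D1:**
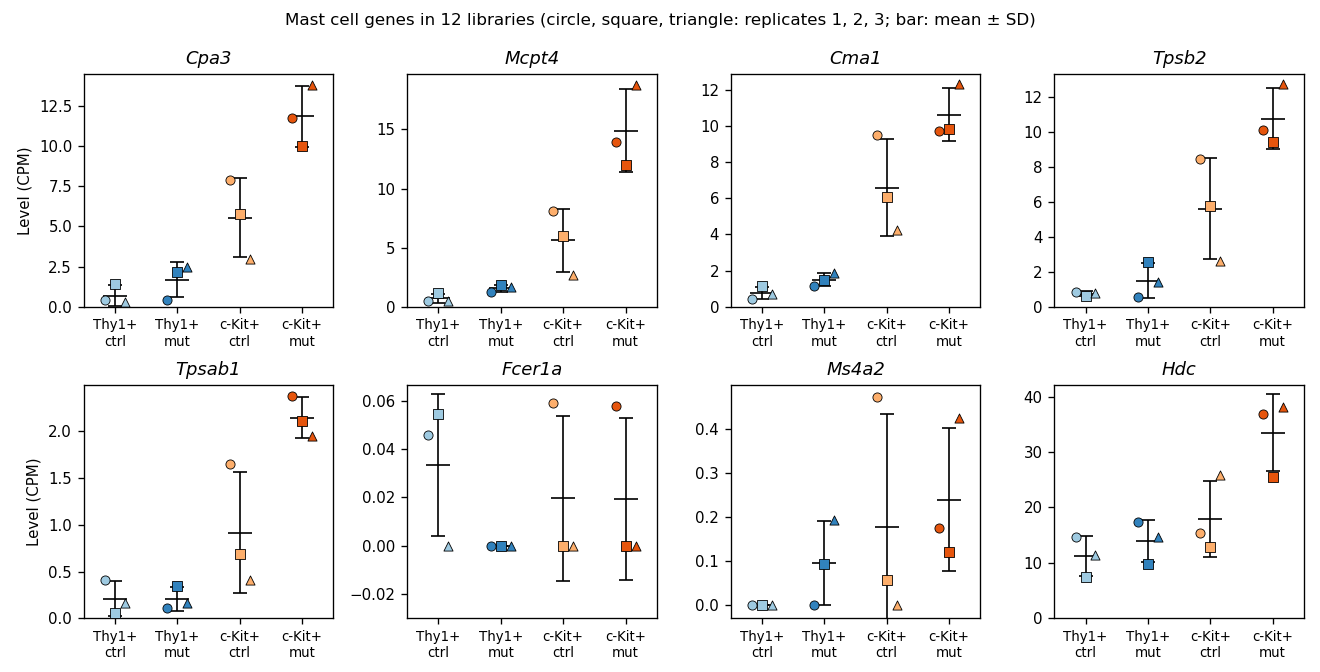
Level of each of the 8 mast cell genes in 12 libraries, in CPM on linear axes that differ between panels. Circles, squares and triangles are replicates 1, 2 and 3, and bars show the mean ± SD of 3 libraries. The means of the 5 proteases are higher in c-Kit+ than in Thy1+ groups and highest in mutant c-Kit+ libraries, *Hdc* overlaps between control groups, and *Fcer1a* and *Ms4a2* stay below 0.5 CPM.

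Levels per length (RPKM, here CPM divided by exon length in kilobases) allow the genes to be ranked against each other. In control c-Kit+ libraries the order was *Hdc* (7.57 ± 2.90 RPKM, SD, n = 3), *Cma1* (6.13 ± 2.49), *Mcpt4* (5.67 ± 2.73), *Tpsb2* (5.14 ± 2.65), *Cpa3* (3.82 ± 1.68) and *Tpsab1* (0.840 ± 0.595). The ranges of mean ± SD of the first 5 overlapped, although *Cpa3* was the lowest of these 5 in each control c-Kit+ library. In mutant c-Kit+ libraries *Mcpt4* came first at 15.1 ± 3.56 RPKM, with *Hdc* at 14.1 ± 2.93, *Cma1* at 9.87 ± 1.37, *Tpsb2* at 9.86 ± 1.61, *Cpa3* at 8.15 ± 1.31 and *Tpsab1* at 1.96 ± 0.200 RPKM. In Thy1+ libraries *Hdc* stood apart at 4.73 ± 1.52 (control) and 5.88 ± 1.61 RPKM (mutant), while no other member exceeded a mean of 1.59 RPKM.

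The first comparison asked how the members differed between both sorted populations of control testes. The log2 fold change in c-Kit+ over Thy1+ libraries was 3.07 for *Cma1* (SE 0.42, FDR = 7.9e-04), 2.96 for *Cpa3* (SE 0.60, FDR = 0.00628), 2.95 for *Mcpt4* (SE 0.49, FDR = 0.00235) and 2.87 for *Tpsb2* (SE 0.43, FDR = 0.00144), by the quasi-likelihood test of edgeR with Benjamini-Hochberg correction over all genes tested. A gene was called at an FDR under 0.05 with a log2 fold change beyond 0.5 in either direction. So 4 of the 6 members tested were called higher and 0 lower, beside 7.08% of 17350 genes called higher and 20.7% called lower. Over the 6 members the median log2 fold change was 2.91, against -0.028 over all genes tested.

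*Tpsab1* (2.04, SE 0.74, FDR = 0.0582) and *Hdc* (0.64, SE 0.31, FDR = 0.130) were not called by the same edgeR test. *Tpsab1* passed the filter on low counts only through its c-Kit+ counts. Same-numbered libraries deviated together in this comparison, and with the replicate number as a block *Tpsab1* (2.12, FDR = 0.0156) and *Hdc* (0.63, FDR = 0.0269) were called by edgeR as well, beside 8.38% of all genes called higher. Among the fits that left out 1 library, that without control Thy1+ replicate 1 also called *Tpsab1* and *Hdc*, at an FDR of 0.0225 and 0.0462 in edgeR's test. The share of all genes called in that fit is not given here, so these calls are not read as particular to the members. With *Tpsb2* and *Tpsab1* counts summed, the log2 fold change of the tryptases was 2.73 (SE 0.46, FDR = 0.00256, edgeR).

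The second comparison put the same question to mutant testes. All 6 tested members were called higher in c-Kit+ libraries, beside 5.03% of 17346 genes called higher and 15.3% called lower. *Tpsab1*, at 4 to 15 counts in mutant Thy1+ libraries, passed the filter only through its c-Kit+ counts. Its call is therefore not read as support. The log2 fold change was 3.31 for *Tpsab1* (SE 0.43, FDR = 7.7e-04), 3.23 for *Mcpt4* (SE 0.24, FDR = 4.8e-05), 2.81 for *Cma1* (SE 0.23, FDR = 6.3e-05), 2.81 for *Tpsb2* (SE 0.43, FDR = 0.00197), 2.79 for *Cpa3* (SE 0.48, FDR = 0.00329) and 1.25 for *Hdc* (SE 0.23, FDR = 0.00491), by edgeR's quasi-likelihood test. The median was 2.81 for the members, with *Tpsab1* included, and 0.031 for all genes tested. The summed level of the 5 proteases was 24.3 ± 11.3 CPM (SD, n = 3) in control c-Kit+ and 3.15 ± 1.06 CPM in control Thy1+ libraries, a ratio of means of 7.71. In mutants it was 50.2 ± 8.42 and 6.48 ± 2.59 CPM, a ratio of 7.75.

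**Figure D2:**
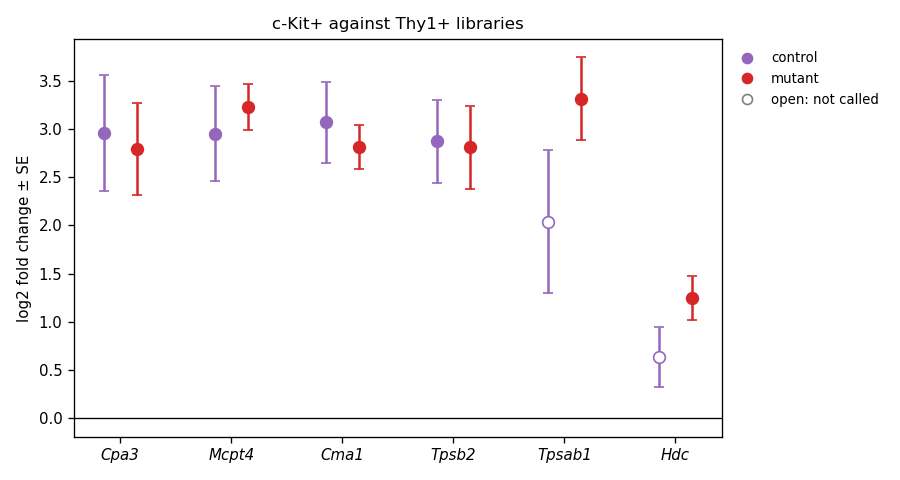
Log2 fold change of 6 members in c-Kit+ against Thy1+ libraries, with its standard error, for control and mutant testes. Filled points passed the quasi-likelihood test, and open points did not. The 5 proteases lie between 2.04 and 3.31, and *Hdc* lies at 0.64 and 1.25.

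Genes of other cell types moved with these comparisons, and their part in the result was not tested. Leydig cell genes were higher in c-Kit+ libraries (5 of 6 called in control, 6 of 6 in mutant), with a summed level of 631 to 1233 CPM against 234 to 420 CPM in control libraries. Stromal genes were lower, with all 6 called in both genotypes, a median log2 fold change of -2.91 in control and -2.41 in mutant libraries and a summed level of 1813 to 2270 CPM in control c-Kit+ against 11051 to 14200 CPM in control Thy1+ libraries. Of 5 peritubular myoid genes, 4 were called lower in each genotype (46.5 to 64.7 against 267 to 494 CPM in control libraries). Other leukocyte genes went the opposite way to the proteases. The 5 pan-leukocyte genes were all called lower in c-Kit+ libraries of both genotypes, with a summed level of 5.75 to 13.4 CPM in control c-Kit+ and 35.4 to 56.4 CPM in control Thy1+ libraries. Of 10 macrophage genes, 8 in control and 9 in mutant libraries were called lower in c-Kit+ cells. Of 6 T cell genes, 4 and 6 were called lower. With the replicate block in control libraries, the calls were 6 Leydig genes higher, 9 macrophage genes lower, and 5 T cell genes lower with 1 higher.

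The third comparison asked how the members differed by genotype within c-Kit+ libraries. Of the 6 tested, 5 were called higher in mutants and 0 lower, beside 14.8% of 17134 genes called higher and 7.41% called lower. By edgeR's quasi-likelihood test the log2 fold change was 1.39 for *Mcpt4* (SE 0.32, FDR = 0.00632), 1.21 for *Tpsab1* (SE 0.43, FDR = 0.0471), 1.08 for *Cpa3* (SE 0.28, FDR = 0.0124), 0.93 for *Tpsb2* (SE 0.32, FDR = 0.0428) and 0.88 for *Hdc* (SE 0.24, FDR = 0.0156). *Cma1* (0.67, SE 0.25, FDR = 0.0556) was not called. With the replicate block, where same-numbered c-Kit+ libraries deviated together, *Cma1* was called at 0.72 (FDR = 0.0373, edgeR), beside 15.8% of all genes called higher. The median of the members was 1.00, against 0.011 for all genes tested.

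These calls rested on few libraries and changed with the libraries fitted. Leaving out 1 library lowers the power for every gene, and the share of all genes called in these fits is not given here. The changes are therefore not read as particular to the members. Only *Mcpt4* stayed called in each of the 6 fits that left out 1 library, by edgeR's test. The number of members called was 6 without control replicate 1, 3 without control replicate 2, control replicate 3 or mutant replicate 2, 2 without mutant replicate 1, and 1 without mutant replicate 3. Without control replicate 3, the lowest control library for the proteases, the *Tpsb2* log2 fold change fell to 0.59 (FDR = 0.0613, edgeR), and without control replicate 1 that of *Tpsab1* was 1.93 (FDR = 0.00240, edgeR). A fit of all 12 libraries with 1 shared spread called 2 members, *Mcpt4* and *Hdc*.

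Most lists of somatic testis genes were higher in the same mutant c-Kit+ libraries, and their part in the result was not tested. Leydig cell genes were called higher in 4 of 6 cases (631 to 1233 CPM summed in control, 1136 to 1948 CPM in mutant libraries), Sertoli cell genes in 5 of 6 (183 to 461 against 734 to 798 CPM), stromal genes in 6 of 6 (1813 to 2270 against 3194 to 4248 CPM) and endothelial genes in 5 of 6 (66.7 to 90.1 against 115 to 181 CPM). Of 10 macrophage genes 1 was called higher, and of 8 germ cell genes 2 were called lower (3145 to 3703 against 2387 to 2742 CPM). With the replicate block, edgeR called 6 of the 10 macrophage genes higher, as well as 6 of 6 Leydig and 6 of 6 Sertoli cell genes. The summed level of the 10 macrophage genes was 21.4 to 57.4 CPM in control and 48.9 to 72.6 CPM in mutant c-Kit+ libraries. Of 5 pan-leukocyte genes, 2 were called higher, or 3 with the block. Their median log2 fold change was 1.05, beside 1.00 for the members. Of 5 peritubular myoid genes 3 were called higher, while of 3 T cell genes tested 1, *Cd3e*, was called lower. *Kit* itself did not pass the test, with 673 ± 44.9 CPM in control c-Kit+ and 730 ± 58.2 CPM in mutant c-Kit+ libraries (SD, n = 3). Set against *Kit*, the summed protease level was 5.34%, 3.36% and 2.06% of the *Kit* level in control and 6.30%, 5.64% and 8.99% in mutant c-Kit+ libraries. These groups did not overlap, but the highest control (5.34%) was close to the lowest mutant library (5.64%). How many of all genes were apart in this way was not counted, so this is a description only.

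In Thy1+ libraries, 0 of the 5 members tested passed the test between genotypes by edgeR's quasi-likelihood test, by its exact test or by DESeq2, and 2, *Mcpt4* (1.15, SE 0.42, unadjusted p = 0.0252 in edgeR) and *Cma1* (0.97, SE 0.42, unadjusted p = 0.0473 in edgeR), had an unadjusted p under 0.05. Over all 17416 genes, 0% were called higher and 0% lower by edgeR's quasi-likelihood test, with 812 and 1339 at an unadjusted p under 0.05. DESeq2 called 53 higher and 331 lower, and edgeR's exact test 20 and 274. The log2 fold change was 1.29 for *Cpa3* (SE 0.76, FDR = 0.496), 1.02 for *Tpsb2* (SE 0.53, FDR = 0.451) and 0.33 for *Hdc* (SE 0.28, FDR = 0.619) in edgeR's quasi-likelihood test. *Tpsab1* had 2 to 18 counts in these libraries and was not tested. Same-numbered Thy1+ libraries deviated together, and with the replicate block *Mcpt4* was called higher in mutants (1.21, SE 0.38, FDR = 0.0249, edgeR), beside 3.20% of all genes called higher. In that fit 5 of 6 Sertoli cell genes were called higher and 5 of 8 germ cell genes lower, and their part in the result was not tested.

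The genotype effects of both populations were then compared in 1 fit. The difference, c-Kit+ minus Thy1+, was 1.29 on the log2 scale for *Tpsab1* (SE 0.92, FDR = 0.678), 0.62 for *Hdc* (SE 0.43, FDR = 0.668), 0.30 for *Mcpt4* (SE 0.57, FDR = 0.905), -0.035 for *Tpsb2* (SE 0.62, FDR = 0.993), -0.15 for *Cpa3* (SE 0.82, FDR = 0.970) and -0.24 for *Cma1* (SE 0.48, FDR = 0.910), in edgeR's quasi-likelihood test. Of the 6 members, 0 passed this test, 0 passed DESeq2 and 0 reached an unadjusted p under 0.05. Among 18002 genes, 0% were called in either direction, with 1478 higher and 326 lower at an unadjusted p under 0.05 and 42 and 17 called by DESeq2. The standard errors were 0.43 to 0.92 log2 units, so that sizeable differences could have been missed. No power was calculated. The ratio of the mean summed protease level in mutants to that in controls was 2.07 in c-Kit+ and 2.06 in Thy1+ libraries. The Thy1+ sums overlapped between genotypes, at 2.42 to 4.36 CPM in control and 3.52 to 8.36 CPM in mutant libraries. For single proteases the Thy1+ ratio ran from 0.977 (*Tpsab1*) to 2.41 (*Cpa3*), so that the likeness of both summed ratios is not read as an equal effect. The 4 population and genotype comparisons share libraries, so their values are given side by side only.

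**Figure D3:**
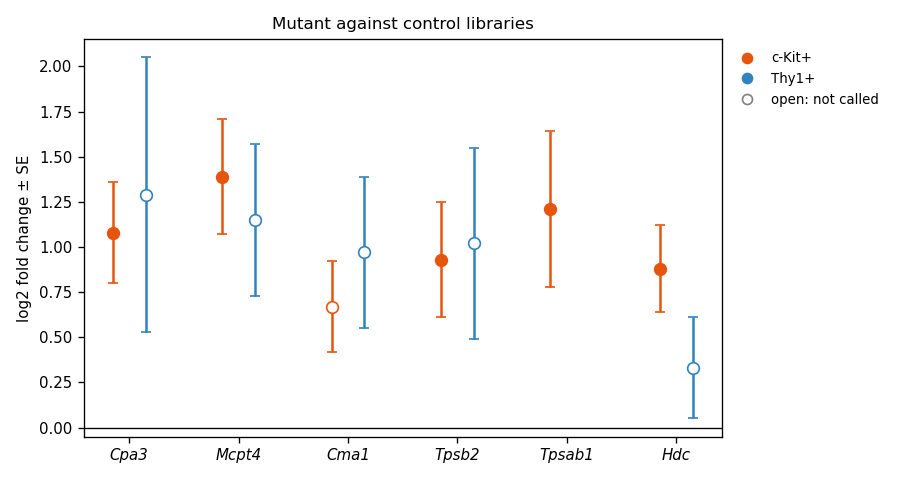
Log2 fold change of the members in mutant against control libraries, with its standard error, for c-Kit+ and Thy1+ cells. Filled points passed the quasi-likelihood test, and open points did not. *Mcpt4*, *Cpa3*, *Tpsb2*, *Tpsab1* and *Hdc* were called in c-Kit+ libraries, 0 members were called in Thy1+ libraries, and *Tpsab1* was not tested there.

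In c-Kit+ libraries *Cpa3* and *Tpsb2* made up similar shares of the protease counts, while the chymases did not. Among the 443 to 2111 protease counts of these 6 libraries, *Cpa3* made up 22.2% to 24.5%, *Tpsb2* 20.3% to 23.7% and *Tpsab1* 2.85% to 4.98%. *Mcpt4* made up 21.0% to 24.8% in control and 27.7% to 31.6% in mutant libraries, and *Cma1* 24.9% to 32.5% in control and 20.3% to 22.7% in mutant libraries, so that the shares of both chymases were apart between genotypes in opposite directions. The number of *Mcpt4* counts for each *Cma1* count was 0.646 to 0.995 in control and 1.22 to 1.53 in mutant c-Kit+ libraries. Shares of the same sum depend on each other, so that these opposite moves are not separate results, and the *Mcpt4* to *Cma1* ratio restates them. No test of the shares was run, and other gene pairs were not compared. In Thy1+ libraries, with 88 to 360 protease counts, the shares scattered, with *Cpa3* at 11.4% to 32.9%. Both reads of a fragment were counted, so that counting error is larger than these counts alone would give.

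**Figure D4:**
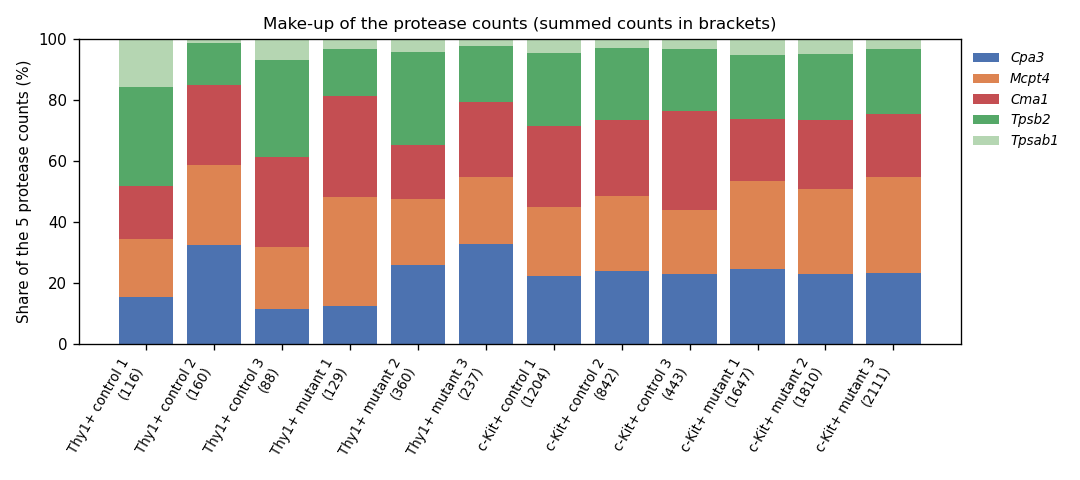
Share of each protease gene in the summed counts of the 5 proteases, in percent, in each of 12 libraries, with the summed count in brackets. The *Cpa3* share stays between 22.2% and 24.5% in c-Kit+ libraries and spans 11.4% to 32.9% in Thy1+ libraries, and the *Mcpt4* share is higher in mutant than in control c-Kit+ libraries.

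Likeness of pattern was measured as Pearson's r of log2(CPM + 0.5) between each member and the mean standardized profile of the others, as a description over libraries that share groups. Over 12 libraries r was 0.979 for *Mcpt4*, 0.964 for *Tpsb2*, 0.962 for *Cma1*, 0.940 for *Cpa3*, 0.929 for *Tpsab1* and 0.710 for *Hdc*. Within the 6 c-Kit+ libraries it was 0.935 to 0.980 for the proteases and 0.447 for *Hdc*. Within the 6 Thy1+ libraries it was 0.591 to 0.741 for *Cpa3*, *Mcpt4*, *Cma1* and *Tpsb2*, 0.0570 for *Tpsab1* and -0.143 for *Hdc*. The number of *Hdc* counts for each *Cma1* count ran from 1.61 in control c-Kit+ replicate 1 to 32.1 in control Thy1+ replicate 1.

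In control c-Kit+ libraries *Hdc*, unlike the proteases, had the same order over replicates as the Leydig cell genes. The summed Leydig level there was 718, 631 and 1233 CPM for replicates 1, 2 and 3, with *Hdc* at 15.3, 12.8 and 25.8 CPM, whereas the summed protease level was 35.5, 24.3 and 13.0 CPM. For mutant c-Kit+ cells the Leydig level was 1589, 1136 and 1948 CPM, with *Hdc* at 36.8, 25.5 and 38.2 CPM and the proteases at 47.8, 43.3 and 59.6 CPM. In mutant libraries all 3 measures had the same order. In Thy1+ libraries *Hdc* did not follow the Leydig cell genes, whose summed level was 268, 234 and 420 CPM in control and 294, 323 and 502 CPM in mutant libraries, with *Hdc* highest in replicate 1 of both genotypes. The order of *Hdc* there was that of the Sertoli cell genes, at 689, 158 and 163 CPM in control and 903, 310 and 317 CPM in mutant libraries. Replicates 2 and 3 were nearly tied in these Sertoli sums. An order of 3 libraries is easily matched by several lists. The mast cell transcription factor and signalling genes, at 43.8, 40.2 and 48.3 CPM summed, also had the *Hdc* order in control c-Kit+ libraries. The orders therefore name no source of *Hdc*. These relations were not tested.

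**Figure D5:**
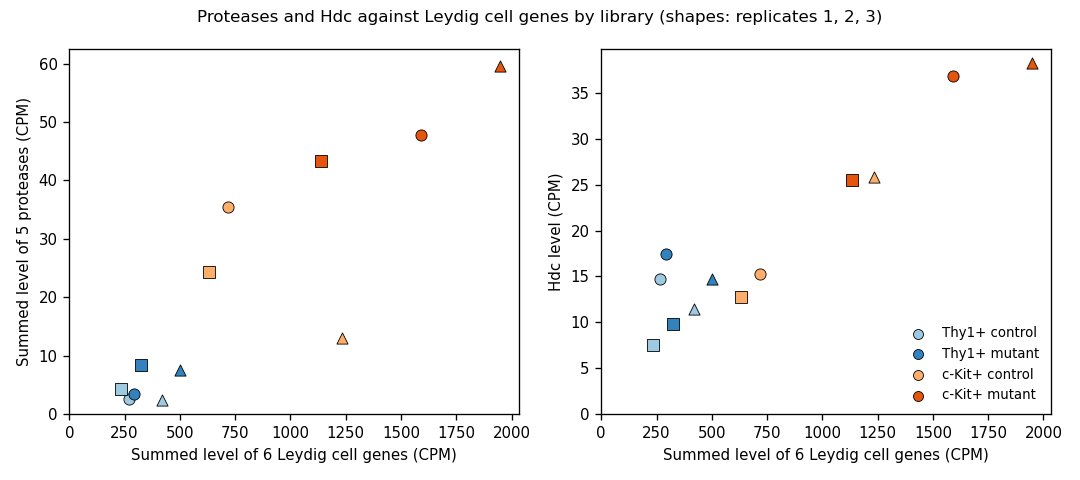
Summed level of the 5 proteases and level of *Hdc*, both in CPM, against the summed level of 6 Leydig cell genes in 12 libraries. Colours are groups and shapes are replicates. Control c-Kit+ replicate 3 (1233 CPM of Leydig genes) lies low for the proteases, at 13.0 CPM, and beside mutant c-Kit+ replicate 2 for *Hdc*, at 25.8 CPM.

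Of 18004 other genes, the 10 most like the mean profile of the 6 tested members were *Ankrd63* (r = 0.973), *Oca2* (0.971), *Doc2b* (0.969), *Dnajc15* (0.965), *Hsd3b1* (0.962), *Ttyh3* (0.961), *Coro2a* (0.960), *Atp2b3* (0.960), *Kcnd2* (0.959) and *Klhdc8a* (0.957), over 12 libraries. *Hsd3b1*, a steroid-forming enzyme, is on the Leydig list, and the other 9 are on none of the lists. By Spearman's rho, 1 of these 10 (*Kcnd2*, 0.993) was among the 10 most alike. Among the 6 Leydig genes r with the member profile was 0.647 to 0.962, so that a high r was not particular to mast cell genes. Of the 33 other mast cell genes, the highest r was that of *Mrgprb2* (0.956) and *Mrgprb1* (0.918), receptors of connective tissue mast cells, followed by *Mcpt2* (0.725).

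The 33 other mast cell genes were grouped by role. Of 25 tested in control libraries, 0 were called higher in c-Kit+ cells by edgeR's quasi-likelihood test and 5 lower, beside 7.08% and 20.7% of all genes, so that the share called lower was near that of all genes. With the replicate block 2 were called higher, the transcription factor genes *Gata2* and *Mitf*, and 9 lower, beside 8.38% and 21.8%. Of 27 tested in mutant libraries 4 were called higher and 4 lower, beside 5.03% and 15.3%. The 4 called higher were *Mcpt2*, *Mrgprb1*, *Mrgprb2* and *Mitf*. All but *Mitf* were too low in Thy1+ libraries to be tested there, and passed the filter only through their c-Kit+ counts. The excess over 5.03% is therefore not read as a result. The 5 genes called lower in control c-Kit+ cells without the block were *Srgn*, which holds granule contents, *Fcer1g*, *Lyn* and *Syk* of IgE receptor signalling, and *Spi1*, a myeloid transcription factor. Between genotypes in c-Kit+ libraries, 7 of 28 were called higher and 1 lower, beside 14.8% and 7.41% of all genes, and 9 and 1 with the block, beside 15.8% and 7.51%. Of those called higher, *Mcpt2* passed the filter only through the mutant libraries. In Thy1+ libraries 0 of 23 were called without the block, and with it *Csf2rb* was called higher and *Lat* and *Plcg2* lower, beside 3.20% and 4.92% of all genes. None was called, of 28 tested, in the difference of the genotype effects.

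The receptors *Mrgprb1* and *Mrgprb2* were the closest to the proteases. *Mrgprb1* had 36, 21 and 8 counts in control and 76, 68 and 83 counts in mutant c-Kit+ libraries, against 0 to 14 counts in each Thy1+ library. Its log2 fold change between genotypes in c-Kit+ libraries was 1.68 (SE 0.44, FDR = 0.0133), and between populations it was 3.57 in mutants (SE 0.71, FDR = 0.00698) and 2.30 in controls (SE 1.14, FDR = 0.144, not called), by edgeR's test. *Mrgprb2* had 16, 16 and 6 counts in control and 34, 25 and 26 counts in mutant c-Kit+ libraries, and 2 to 8 counts in Thy1+ libraries. It was called between populations in mutants (2.54, SE 0.58, FDR = 0.0136, edgeR) but not between genotypes (1.04, SE 0.47, FDR = 0.105, edgeR). Between mutant populations, both receptor genes passed the filter only through their c-Kit+ counts.

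The mucosal chymase gene *Mcpt2* had 4, 2 and 0 counts in control c-Kit+ libraries and 16, 69 and 38 counts in mutant c-Kit+ libraries, and 0 to 12 counts in Thy1+ libraries. It was called higher in mutant c-Kit+ libraries (FDR = 0.00234, edgeR's quasi-likelihood test), with counts in controls too low for a fold change. The gene passed the filter only through the mutant libraries. *Mcpt1*, *Mcpt9*, *Cma2* and *Ctsg* had 0 to 6 counts in every library. The other genes called higher in mutant c-Kit+ libraries were *Il1rl1*, the receptor of interleukin 33 (1.32, SE 0.36, FDR = 0.0145), *Csf2rb* (1.24, SE 0.39, FDR = 0.0301), *Tal1* (1.10, SE 0.32, FDR = 0.0195), *Gata1* (0.85, SE 0.23, FDR = 0.0145) and *Lyn* (0.82, SE 0.29, FDR = 0.0443), in edgeR's test. *Gata1* is also made by Sertoli cells, whose genes were higher in the same libraries. *Ltc4s*, which forms leukotrienes, was called lower (-1.52, SE 0.52, FDR = 0.0413, edgeR), falling from 0.713 ± 0.404 CPM in control c-Kit+ to 0.248 ± 0.0639 CPM in mutant c-Kit+ libraries (SD, n = 3), but with the replicate block it was not called (FDR = 0.0741, edgeR).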

How the data were processed

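Per the labels and the study's methods, the authors prepared directional poly(A) libraries, trimmed reads with Trimmomatic 0.39, aligned them with HISAT2 2.1.0 to mm10 and deposited whole-number counts per gene from featureCounts (2.0.3 in the file header), over RefSeq exons and without a strand option. Both reads of a fragment were counted, and reads that mapped to several places were not. Symbols were matched by gene ID for 25275 of 27179 genes. The 30 chromatin samples were not analysed here. The members and all gene lists were chosen with earlier results of these data known.

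Counts were filtered (filterByExpr), scaled (TMM) and tested with edgeR 4.0.16 (quasi-likelihood, R 4.3.3) on the 6 libraries of each comparison, or 12 for the difference of genotype effects, with Benjamini-Hochberg adjustment over all genes. The code was tested on simulated counts. Named were all 8 members, other listed mast cell genes at 1 CPM or called (7 of 33 met neither, and are named only at low counts), the sorting antigens and the 10 most alike genes. The basophil genes *Mcpt8* and *Prss34* were chosen after their values were seen. Same-numbered libraries were taken as paired where deviations from the group means correlated above 0.1 in every pair: 0.171 to 0.423 between control populations, 0.121 to 0.210 in c-Kit+ and 0.398 to 0.645 in Thy1+, but not in mutants (1 of 3 pairs) or in the fit of 12 libraries (13 of 18). Pairs of different numbers reached at most 0.144, -0.0363 and -0.0405 in the comparisons taken as paired, in the same order. Between control populations a mismatched pair thus also passed the limit of 0.1. Alternatives were DESeq2 1.42.0, edgeR's exact test, other scalings and filters, a replicate block, summed tryptases and leaving out each library.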

Additional observations from a re-analysis of the deposited data

How the results depend on the processing

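In c-Kit+ libraries, the number of members called higher in mutants was 5, but 2 in the fit of 12 libraries, and 1 (without mutant replicate 3) to 6 (without control replicate 1) when 1 library was left out. In Thy1+ libraries, where the replicate numbers were paired, it was 1 with the replicate block and 0 otherwise. Between populations, the number called was 4 to 6 in controls and 5 (with the tryptases summed) or 6 in mutants over all alternatives, including the fits without 1 library. *Tpsab1* passed the main filter in these comparisons only through its c-Kit+ counts. Among the members, the block changed no call other than those of *Tpsab1*, *Hdc*, *Cma1* and *Mcpt4* given above. Among the other mast cell genes it changed 6 calls between control populations, 4 between genotypes in c-Kit+ and 3 in Thy1+ libraries. For the difference of the genotype effects, which was not called for any member, the sign turned for *Tpsb2* with the replicate block (0.033) and with the tryptases summed (0.18). Leaving out 1 library gave -0.43 to 0.60 for *Tpsb2*, -1.24 to 0.23 for *Cpa3*, -0.72 to 0.11 for *Cma1* and -0.30 to 0.65 for *Mcpt4*. The cause was not tested.

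Over all genes, the number called higher in c-Kit+ cells moved from 1229 to 625 (c-Kit+ control replicate 2 left out) and 2002 (Thy1+ control replicate 2 left out) in controls, and from 872 to 338 (Thy1+ mutant replicate 3 left out) and 1788 (Thy1+ mutant replicate 2 left out) in mutants. Scaling by library size only gave 1851 and 1390, and no minimum on the fold change 2357 and 1534. Without that minimum, 3139 genes were called lower in mutant c-Kit+ libraries, against 1270. The block raised the calls between genotypes in Thy1+ libraries from 0 to 558 higher and 856 lower, and for the difference of the genotype effects from 0 to 422 and 24. *Fcer1a* and *Ms4a2* were too low at this depth to be tested.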
